A study of Rattus norvegicus with 10 samples.

Results

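The 9 genes of myelin and of the cells that make it described here were measured in the brain of calorie-restricted rats: *Mbp*, *Mog*, *Mag*, *Mal*, *Mobp*, *Cnp*, *Ugt8*, *Olig1* and *Olig2*. They were chosen by name, and every probe set to which the platform annotation gives one of these symbols alone is described, whatever its values. These were 16 probe sets of the 31099 on the array, for 9 of the 14218 genes that have a probe set with 1 symbol. *Mog*, *Mag*, *Mal* and *Olig1* had a single probe set, and the other 5 genes had several.

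Myelin is the membrane that oligodendrocytes wrap around axons in the brain and spinal cord. In its compact part the membrane layers are held together from the inside by basic proteins such as MBP and MOBP, and MAL sorts proteins and lipids to the membrane. MAG lies on the face that touches the axon, MOG on the outermost layer, and CNP is an enzyme of the cytoplasmic channels that stay open between the layers. UGT8 makes galactosylceramide, the lipid for which myelin is known. OLIG1 and OLIG2 are basic helix-loop-helix transcription factors: OLIG2 is needed for the oligodendrocyte lineage to form, and OLIG1 for its cells to mature.

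The tested groups were male Wistar rats fed a purified AIN-93G diet from 6 weeks of age for 1 week. They were given 5, 10, 20 or 30% less than the daily intake recorded under free feeding (calorie restriction, CR). The control rats were of the same strain, sex and age and were given that recorded intake of the same diet in full. All rats were fasted for 16 h before sampling, and RNA from the hypothalamic area of 5 rats was pooled for each array, so that each of the 4 CR levels and the control was measured on 1 Affymetrix rat genome array. Another 5 arrays, of 1 month, were not used, because their values did not follow the probe set names: their correlation with the 1 week arrays was between 0.036 and 0.052.

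Values are MAS5 signals, a linear brightness scaled by the authors to the same trimmed mean on each array. A difference is log2 of the CR signal minus log2 of the control signal, averaged over the 4 CR arrays, and its SD is over these 4 arrays, which are different diets and not replicates. The test was limma's moderated test of the 4 CR arrays against the 1 control array, with p-values adjusted by Benjamini-Hochberg over the 15517 probe sets past a filter at a mean signal of 53.4. It measures only the spread between pools, the spread of the control is not known, and a property of the control array and an effect of CR cannot be told apart.

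The control array stood apart. Signals under 10 made up 11.71 to 14.35% of the probe sets on the CR arrays, against 24.02% on the control array, and the correlation of the log2 signals was 0.912 to 0.922 among CR arrays, against 0.852 to 0.874 between the control and CR arrays. The 12 spike-in poly-A probe sets were all lower on the CR arrays, by a median of -1.23 log2. The log2 ratio of 3′ to 5′ signal of actin, a measure of RNA integrity and labelling, was 2.31, 2.80, 2.46 and 2.19 at 5, 10, 20 and 30% CR, against 1.90 in control, and that of GAPDH was 0.51, 0.74, 0.79 and 0.40, against 0.19 in control. Of all tested probe sets 25.5% passed an adjusted p of 0.05, 14.5% as higher and 11% as lower in CR. When the arrays were scaled to an equal median instead, the median difference over all tested probe sets was -0.41 in place of 0.03, with 1024 probe sets higher and 5025 lower in place of 2246 and 1712. The part of these array differences in the results below was not tested.

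The labelled tissue was checked with marker genes. The summed signal of 7 genes of hypothalamic neuropeptides was 18453.8 to 20658.2 in CR and 17698.5 in control, and of the 6 past the filter 1 was higher (*Npy*) and 1 lower (*Trh*). *Pmch*, for melanin-concentrating hormone, had signals of 8130.4 to 8942.1 in CR and 7157.0 in control. *Pomc*, the one of the 7 not past the filter, had 4.9 to 14.8 in CR and 2.6 in control. The summed signal of 3 genes of Schwann cells, which make myelin outside the brain, was 43.6 to 86.4 in CR and 45.3 in control, and none of the 3 passed the filter.

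*Mal*, *Mobp* and *Ugt8* each had a probe set that passed the test as lower in CR and a single promoter entry. The bases around their transcription starts are therefore shown. *Mbp* also had such a probe set but has 2 entries at different starts, which are described by their motif counts. They are RefSeq sequences of GRCr8, 250 bases before to 50 bases after the start, and 7 of the 9 genes had an entry. The intervals are chr3:135341374-135341673 on the minus strand for *Mal*, chr8:128746982-128747281 on the plus strand for *Mobp* and chr2:217007118-217007417 on the minus strand for *Ugt8*. Capitals mark the letters CANNTG (the E-box that OLIG proteins and their relatives bind), ACAAAG and ACAATG (cores bound by SOX proteins such as SOX10), searched on both strands.
Mal: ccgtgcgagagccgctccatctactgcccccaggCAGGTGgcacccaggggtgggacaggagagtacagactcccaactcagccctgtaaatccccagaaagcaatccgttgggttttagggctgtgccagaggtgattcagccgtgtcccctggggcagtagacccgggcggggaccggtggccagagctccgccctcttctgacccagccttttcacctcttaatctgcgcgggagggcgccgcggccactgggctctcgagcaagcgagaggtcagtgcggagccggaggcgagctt
Mobp: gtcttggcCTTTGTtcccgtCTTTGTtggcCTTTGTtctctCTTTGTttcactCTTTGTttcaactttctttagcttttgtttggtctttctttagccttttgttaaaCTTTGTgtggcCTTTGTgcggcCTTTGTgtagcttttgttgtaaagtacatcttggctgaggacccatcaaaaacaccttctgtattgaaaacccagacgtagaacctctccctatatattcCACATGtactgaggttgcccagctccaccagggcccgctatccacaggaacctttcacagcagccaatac
Ugt8: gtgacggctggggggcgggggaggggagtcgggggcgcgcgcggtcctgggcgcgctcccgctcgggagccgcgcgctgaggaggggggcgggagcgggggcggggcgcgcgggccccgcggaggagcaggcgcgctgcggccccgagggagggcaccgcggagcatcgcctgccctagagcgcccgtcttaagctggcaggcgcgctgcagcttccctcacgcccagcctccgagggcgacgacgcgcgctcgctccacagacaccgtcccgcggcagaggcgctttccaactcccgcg
The *Mobp* sequence held ACAAAG 8 times, a motif found in 18.8% of the 33469 rat promoters of this length and found 8 or more times in 3 of them. The *Mal* and *Ugt8* sequences held none. CANNTG was found once in *Mal* and once in *Mobp* and was absent from *Ugt8*, against a share of 72.1% of all promoters. ACAATG, found in 13.2% of all promoters, was in none of the 3 sequences. Of the 2 *Mbp* entries, 1 held CANNTG 3 times, ACAAAG 1 time and ACAATG 2 times, and the other held none of them. The entries of *Mag* and *Cnp*, which had no called probe set, each held CANNTG 2 times and ACAAAG 1 time. That of *Olig2* held none of the motifs. No motif searched was found in all of these genes, and a match of letters says nothing of binding.

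Of the 16 probe sets, 14 passed the filter. In CR 6 of them were lower (42.9%, against 11% of all tested probe sets), 1 was higher (7.14%, against 14.5%) and 7 did not pass the test. The lower ones belonged to *Mbp*, *Mog*, *Mal*, *Mobp*, *Ugt8* and *Olig1*, the higher one to *Olig2*, and neither *Mag* nor *Cnp* had one. Markers of other brain cells also had lower probe sets, 4 of 10 tested for astrocytes and 4 of 11 for neurons, so a lower share above that of all probe sets was not seen for the myelin genes alone. The lower share was larger among bright probe sets. With a stricter filter, at the 75th percentile of mean signal, 1368 of all 7750 tested were lower and 1295 higher. At the main filter these were 1712 and 2246 of 15517. Under the stricter filter 6 of the myelin probe sets were lower and 0 higher. At the main filter the median difference was -0.40 log2 over the 14, against 0.03 over all tested probe sets. Probe sets of 1 gene share a target, so these are counts of probe sets and not of independent genes. In RNA from tissue, fewer oligodendrocytes and less RNA per oligodendrocyte cannot be told apart.

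**Figure D1:**
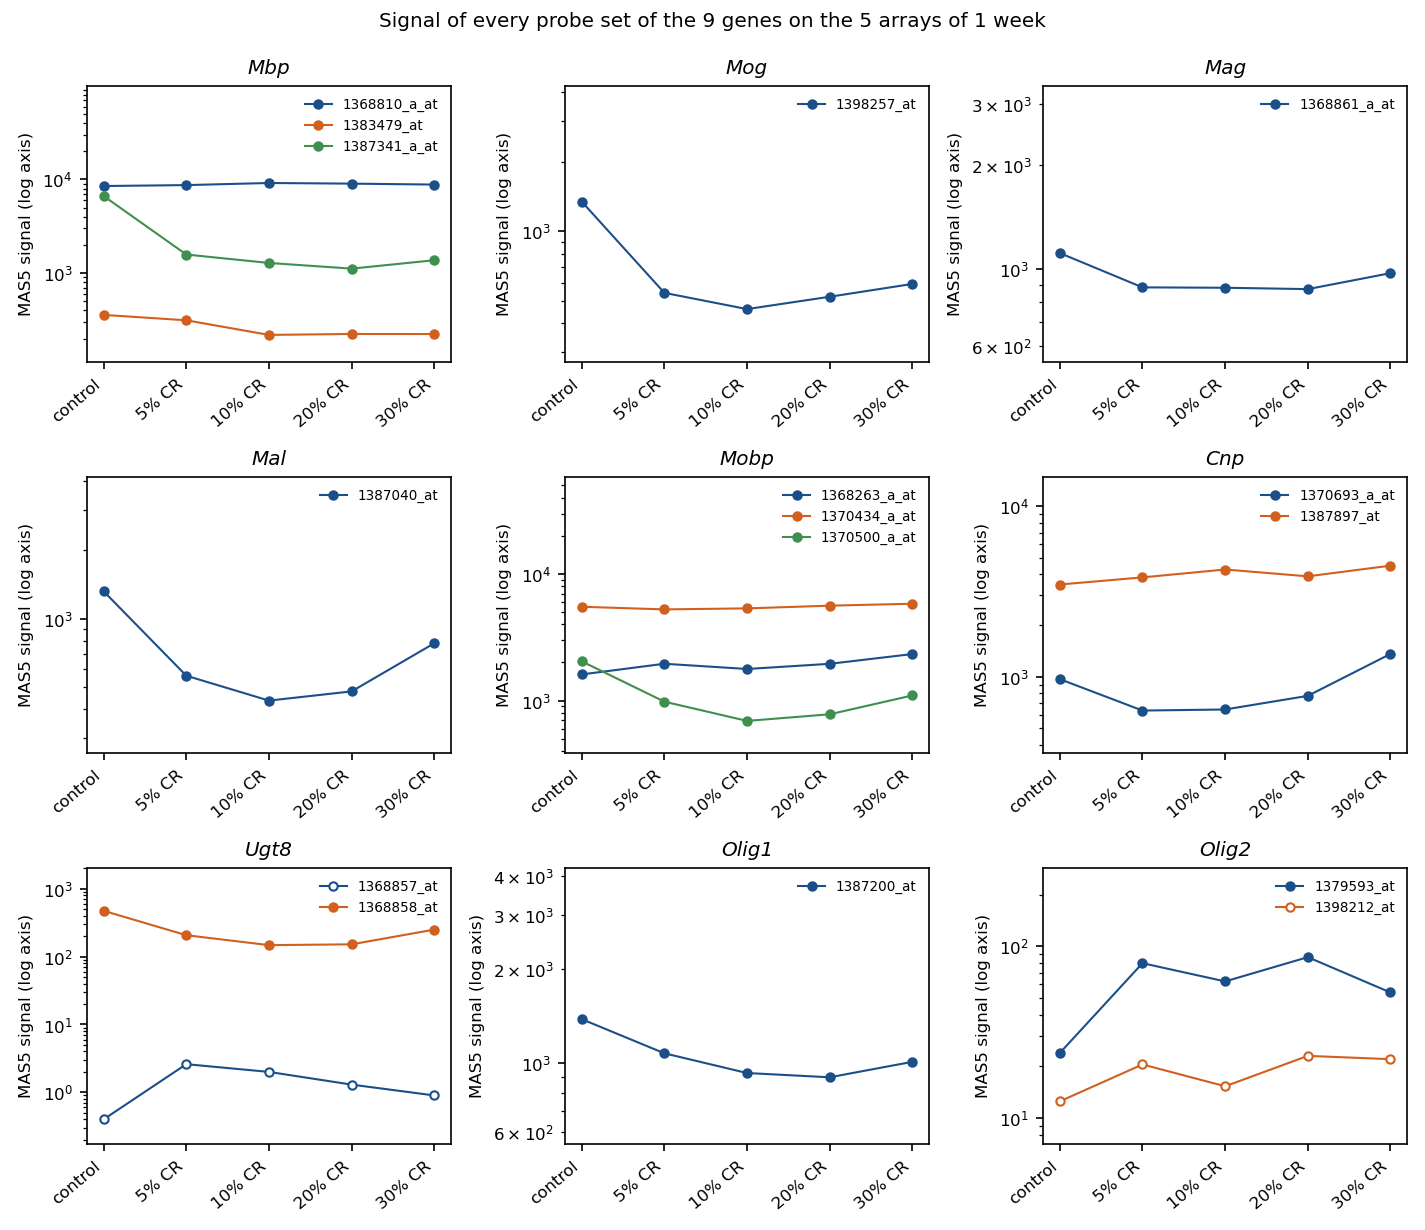
Signal (MAS5, log axis) of each probe set of the 9 genes on the 5 arrays of 1 week, in order of restriction from control to 30% CR, 1 pool of 5 rats per point, open points not past the filter. *Mog*, *Mal*, *Ugt8* 1368858_at, *Mbp* 1387341_a_at and *Mobp* 1370500_a_at were lower at all 4 CR levels, while the brightest probe sets of *Mbp*, *Mobp* and *Cnp* lay near their control signal as deposited.

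*Mbp* encodes myelin basic protein, and its 3 probe sets gave 3 different readings. Probe set 1387341_a_at had signals of 1578.8, 1283.3, 1116.5 and 1372.3 at 5, 10, 20 and 30% CR, against 6650.2 in control. It was 5.01-fold lower, a log2 difference of -2.32 ± 0.21 (SD, 4 CR arrays, adjusted p = 1.5e-04), and no CR array came near the control. Probe set 1368810_a_at had 8699.7, 9161.8, 9018.6 and 8811.6 in CR, against 8503.5 in control. Its difference of 0.07 ± 0.03 did not pass the test (adjusted p = 0.60), and its sign turned with the scaling, to -0.37 at an equal median, -0.27 after quantile normalization and -0.19 after cyclic loess. Probe set 1383479_at had 313.7, 219.0, 224.1 and 223.7 in CR, against 358.1 in control. All 4 CR signals lay below the control, but the difference of -0.56 ± 0.25 did not pass (adjusted p = 0.097). Without the 5% CR array it was -0.69 and passed (adjusted p = 0.032), and it passed as lower at an equal median too (adjusted p = 0.006).

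*Mobp*, for myelin-associated oligodendrocyte basic protein, split in the same manner. Probe set 1370500_a_at had 981.0, 691.6, 780.0 and 1098.6 in CR, against 2042.2 in control, and was 2.34-fold lower (log2 difference -1.23 ± 0.30, adjusted p = 0.004). Probe set 1370434_a_at had 5250.6, 5348.1, 5618.9 and 5820.1 in CR, against 5506.6 in control. These lay on both sides of the control, with a difference of 0.00 ± 0.07 as deposited (adjusted p = 1.00), -0.44 at an equal median (adjusted p = 0.010) and -0.29 after quantile normalization (adjusted p = 0.047), where it passed as lower. Probe set 1368263_a_at had 1954.7, 1777.2, 1952.2 and 2331.7 in CR, against 1610.0 in control. All 4 CR signals were above the control, yet the difference of 0.31 ± 0.16 did not pass (adjusted p = 0.14) and was -0.13 at an equal median.

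*Mal*, whose product is a lipid-raft protein of compact myelin, had 561.5, 436.8, 479.3 and 779.1 in CR, against 1316.5 in control. It was 2.39-fold lower (log2 difference -1.26 ± 0.37, adjusted p = 0.007). The CR arrays did not overlap the control, and 30% CR was the closest to it, at -0.76, while 10% CR was the farthest, at -1.59.

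Among the genes of the outer and inner faces of the sheath, *Mog* was lower and *Mag* did not pass. *Mog* had 542.0, 461.1, 521.4 and 592.4 in CR, against 1345.6 in control, a 2.55-fold lower signal (log2 difference -1.35 ± 0.15, adjusted p = 4.9e-04). *Mag* had 884.0, 881.8, 873.8 and 971.6 in CR, against 1110.5 in control. Each CR array was below the control, but the difference of -0.30 ± 0.07 did not pass (adjusted p = 0.099). At an equal median it was -0.74 and passed (adjusted p = 0.003).

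*Cnp*, for the cyclic nucleotide phosphodiesterase of non-compact myelin, had no probe set that passed. Probe set 1387897_at had 3824.8, 4254.2, 3879.7 and 4481.2 in CR, against 3474.5 in control, with a difference of 0.24 ± 0.11 (adjusted p = 0.15) that was -0.20 at an equal median. Probe set 1370693_a_at had 634.0, 643.2, 773.2 and 1361.3 in CR, against 968.6 in control. Here 3 levels were below the control and 30% CR above it, so that the mean difference was -0.26 ± 0.52 (adjusted p = 0.62). Without the 30% CR array it was -0.51 and passed (adjusted p = 0.037).

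*Ugt8* had a bright and a very dim probe set. Probe set 1368858_at had 206.8, 147.6, 151.7 and 250.1 in CR, against 473.1 in control, and was 2.56-fold lower (log2 difference -1.36 ± 0.37, adjusted p = 0.008). Its CR arrays lay well below the control and were again highest at 30% CR. Probe set 1368857_at had 2.6, 2.0, 1.3 and 0.9 in CR and 0.4 in control and did not pass the filter.

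The 2 transcription factor genes were called in opposite directions. *Olig1* had 1072.6, 926.8, 898.0 and 1007.0 in CR, against 1381.5 in control. This was 1.42-fold lower (log2 difference -0.50 ± 0.12, adjusted p = 0.020), and without a mean-variance trend in the test the adjusted p was 0.097. *Olig2* 1379593_at had 79.7, 62.4, 86.4 and 53.8 in CR, against 23.9 in control, a 2.90-fold higher signal (log2 difference 1.54 ± 0.32, adjusted p = 0.028). The probe set was dim: its mean lay at percentile 51.0 of all probe sets, just past the filter, and it got there through its CR signals. The call was lost at an equal median (1.10, adjusted p = 0.064), after quantile normalization (0.86, adjusted p = 0.22), after cyclic loess (1.08, adjusted p = 0.092), and without the 5% (1.47, adjusted p = 0.060) or the 20% CR array (1.43, adjusted p = 0.057). *Olig2* 1398212_at had 15.3 to 23.0 in CR and 12.5 in control and did not pass the filter.

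**Figure D2:**
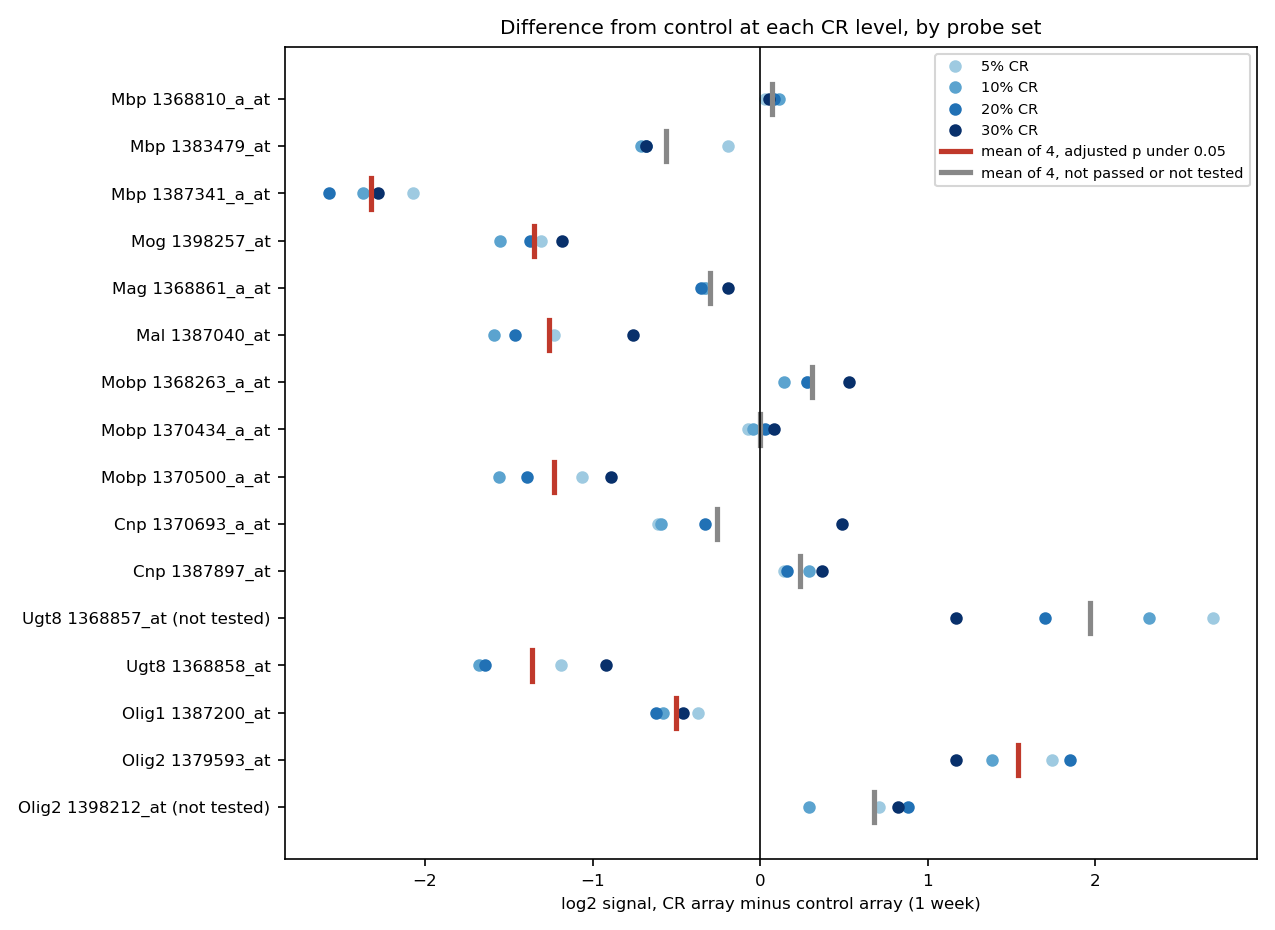
Log2 CR minus log2 control for each probe set of the 9 genes, 1 point per CR level, with a bar at the mean, red where the adjusted p was under 0.05, and a vertical line at no difference. The points of *Mbp* 1387341_a_at lie between -2.57 and -2.07, those of *Mog* between -1.55 and -1.18, and those of *Olig2* 1379593_at between 1.17 and 1.85.

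The CR levels were then compared with each other. A fold of at least 1.5 at all 4 levels was met by 5 of the 14 probe sets in the lower direction, those of *Mbp*, *Mog*, *Mal*, *Mobp* and *Ugt8* (7.44% of all tested probe sets), and by 1 in the higher direction, *Olig2* (12.4%). All 4 CR signals were below the control in 8 (33.1% of all) and above it in 4 (37.1%). The 30% CR array was the highest of the 4 CR arrays in 9 of the 14 (26.8% of all), and the 10% CR array the lowest in 6 (25.7% of all). A linear trend over the 4 CR levels, tested by limma, passed for none of the 15517 probe sets, with 741 (4.78%) at an unadjusted p under 0.05. Of the 14, this included only *Cnp* 1370693_a_at, which gained 0.44 log2 per 10 percentage points of restriction (unadjusted p = 4.6e-04, adjusted p = 0.75). Its signal was thus lowest at 5% CR and highest at 30% CR.

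The readings of probe sets of the same gene were then set side by side. The difference between CR and control spanned 2.39 log2 over the 3 probe sets of *Mbp*, a range at percentile 95.9 among the 1872 genes with several tested probe sets. It spanned 1.53 for *Mobp* (percentile 83.9) and 0.50 for *Cnp* (percentile 34.4), against a median range of 0.74 and an upper decile of 1.88. A lower probe set beside one that was not lower was found in 23.6% of these genes, *Mbp* and *Mobp* among them. Another myelin gene, *Cldn11*, which encodes the claudin of myelin tight junctions, showed the same: probe set 1369609_at had 107.9, 73.1, 47.2 and 86.1 in CR, against 501.3 in control (log2 difference -2.74 ± 0.50, adjusted p = 0.001), while 1376711_at had 3542.6, 3284.2, 3654.5 and 3823.8, against 3919.1 (-0.13 ± 0.09, adjusted p = 0.40). The second of these was -0.57 and passed at an equal median (adjusted p = 0.004), and was -0.34 after quantile normalization (adjusted p = 0.045). The transcript regions that these probe sets target were not analysed here.

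**Figure D3:**
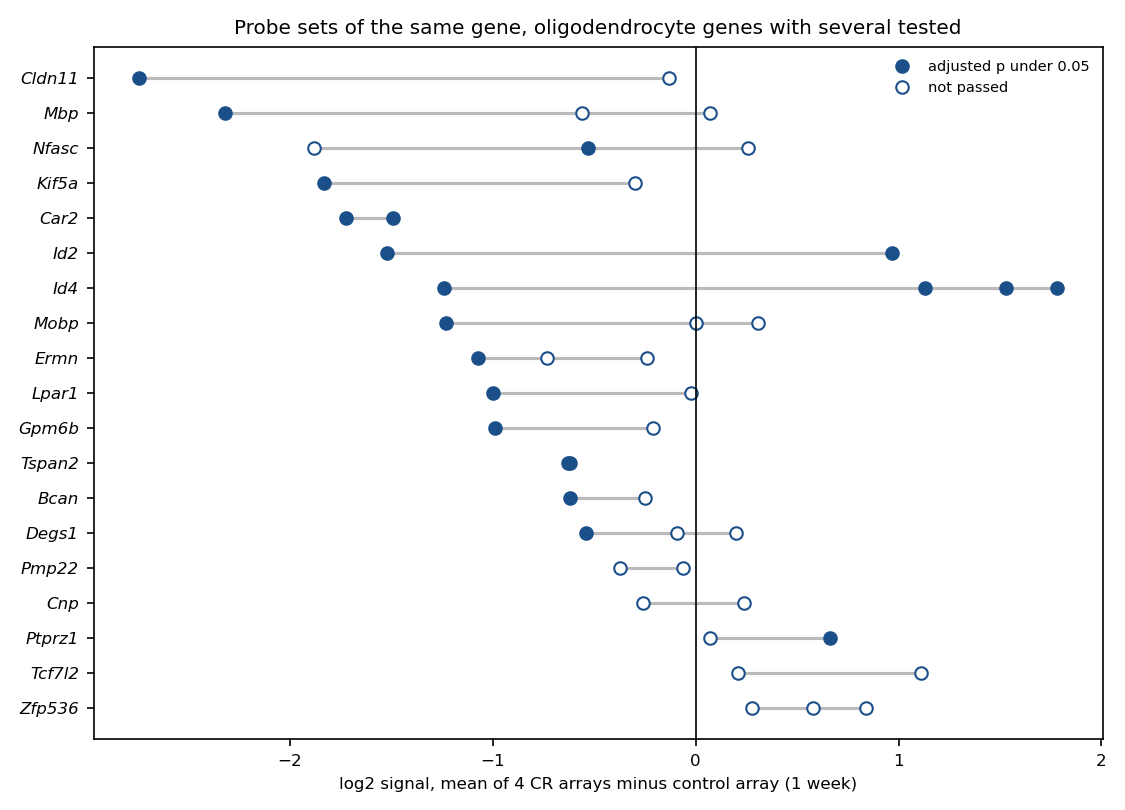
Log2 signal (mean of the 4 CR arrays minus the control array) of each tested probe set, 1 point per probe set, for the myelin and oligodendrocyte genes with several of them, joined by a line within a gene, filled points past an adjusted p of 0.05. The points of *Mbp* run between -2.32 and 0.07 and those of *Cldn11* between -2.74 and -0.13, while the points of *Car2* and *Tspan2* lie close together.

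The order of the arrays was also compared with the actin ratio, a choice made after the values were seen. By that ratio the arrays run, from low to high, control, 30% CR, 5% CR, 20% CR and 10% CR. The signals of *Mog*, *Mal*, *Mobp* 1370500_a_at and *Ugt8* 1368858_at followed exactly the reverse order. These are 4 of the 14 tested probe sets, against 450 (2.90%) of all tested probe sets. All 4 were among the 6 called lower in CR, against 192 (11.2%) of the 1712 that were lower in CR. None of the 14 followed the same order as the ratio, against 3.18% of all. By the GAPDH ratio the arrays run control, 30% CR, 5% CR, 10% CR and 20% CR, and none of these 4 probe sets followed the reverse of that order. The reverse GAPDH order was followed by 1 of the 14, *Mag*, which was not called lower, against 3.38% of all tested probe sets. None of the 6 called lower followed it, against 14.0% of all those lower in CR. The orders by the 2 ratios differ only in the place of 10% and 20% CR. The part of RNA integrity or labelling in the lower signals was not tested.

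**Figure D4:**
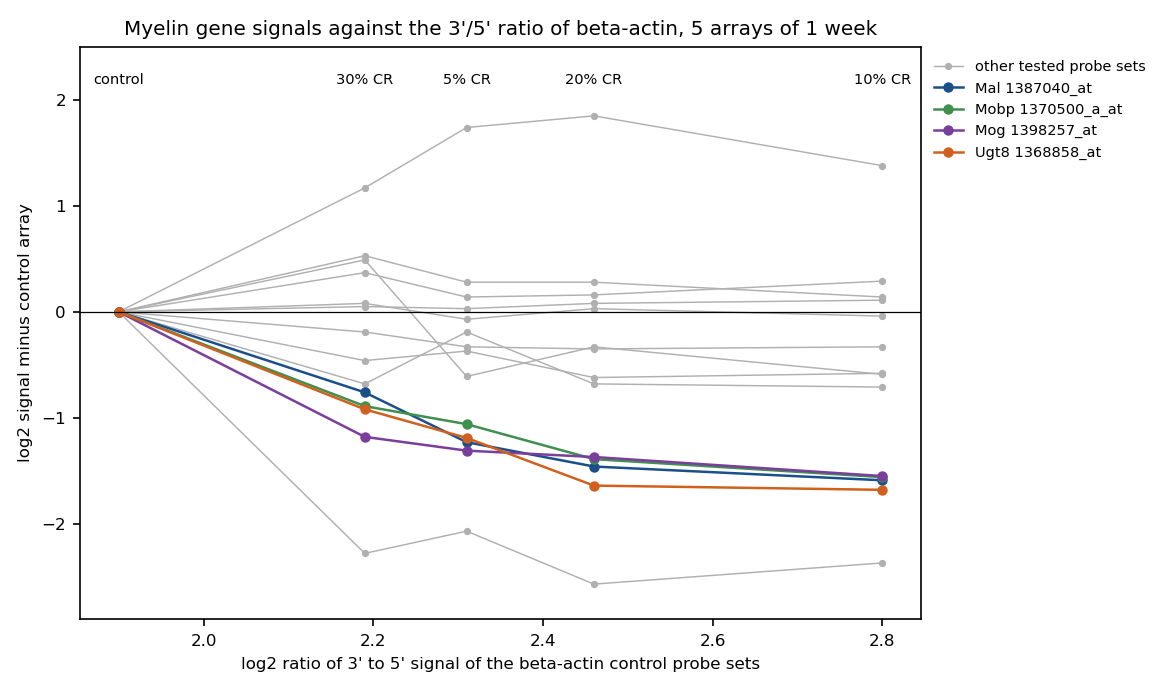
Log2 signal minus that of the control array (vertical) for the 14 tested probe sets of the 9 genes, with the 5 arrays placed along the horizontal axis by their log2 actin 3′ to 5′ ratio. The signals of *Mog*, *Mal*, *Mobp* 1370500_a_at and *Ugt8* 1368858_at step down with each step up in the ratio, which they did not by the GAPDH ratio, where 10% and 20% CR change places.

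A further 5 lists of myelin and oligodendrocyte genes were read on the brightest probe set of each gene. Of 81 genes on the array 71 passed the filter, and in CR 21 were lower (29.6%, against 11.3% of all genes read this way) and 6 higher (8.45%, against 11.6%). The 9 genes above gave 4 lower and 1 higher by the same reading, since the brightest probe sets of *Mbp* and *Mobp* are not among those called. With the filter at the 75th percentile, the 5 lists gave 20 lower and 6 higher, where 1368 of all 7750 probe sets were lower.

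Among other myelin proteins 7 of 14 genes were lower and none was higher, with a median of -0.58. The tetraspanin gene *Cd9* had 554.2 to 651.4 in CR, against 1307.7 in control (log2 difference -1.14, adjusted p = 6.7e-04). *Cd82*, another tetraspanin gene, was lower by -1.22 (adjusted p = 0.032), *Jam3*, for a junctional adhesion molecule, by -1.21 (adjusted p = 0.021) and *Omg*, for oligodendrocyte myelin glycoprotein, by -0.79 (adjusted p = 0.003). *Cd82* lost its call after quantile normalization (adjusted p = 0.054) and without a mean-variance trend (adjusted p = 0.083). *Jam3* also lost its call without that trend (adjusted p = 0.053).

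Of 13 genes for myelin lipid synthesis and turnover, 3 were lower and 1 was higher. The ceramide synthase gene *Cers2* was lower by -0.86. It lost its call without the 5% CR array (-0.79, adjusted p = 0.056), after quantile normalization (adjusted p = 0.068) and without a mean-variance trend (adjusted p = 0.092). *Psap*, for the precursor of the saposins that help degrade sphingolipids, was lower by -0.81, and *Degs1*, for the dihydroceramide desaturase, by -0.54. The call of *Degs1* was lost without a mean-variance trend (adjusted p = 0.074). Its other tested probe sets did not pass, at 0.20 (1391406_at, adjusted p = 0.36) and -0.09 (1386022_at, adjusted p = 0.79). *Ugcg*, which competes with *Ugt8* for ceramide and makes glucosylceramide, had 353.5, 382.3, 329.8 and 315.6 in CR, against 92.9 in control. It was 3.71-fold higher (log2 difference 1.89 ± 0.12, adjusted p = 2.7e-04), with each CR array far above the control.

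Of 9 lineage transcription factor genes, none was lower and 2 were higher, *Id4* (1.13) and *Id2* (0.97), which encode inhibitors of basic helix-loop-helix factors such as OLIG1 and OLIG2. Their probe sets split as those of *Mbp* did, but with opposite signs: *Id2* 1368870_at was lower by -1.52 and *Id4* 1375120_at by -1.24. For *Id4* this was the only lower probe set, and 1375183_at (1.53) and 1385923_at (1.78) were higher too. Without a mean-variance trend *Id2* 1375532_at (adjusted p = 0.061) and 1368870_at (adjusted p = 0.059) lost their calls. A lower beside a higher probe set was found in 4.01% of the genes with several. *Sox10*, the factor that turns on myelin genes, had 257.0, 302.2, 221.0 and 227.0 in CR and 241.0 in control. Its difference was 0.05 (adjusted p = 0.88) and -0.38 at an equal median, and without the 10% CR array it was -0.04. *Myrf*, a factor needed to keep myelin genes active, had a difference of -0.37 (adjusted p = 0.30), which was -0.80 and passed at an equal median (adjusted p = 0.032).

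Among 28 other genes of mature oligodendrocytes, 9 were lower and 3 higher, with a median of -0.27. *Car2*, for the carbonic anhydrase of oligodendrocytes, had 961.1, 827.3, 635.1 and 934.1 in CR, against 2331.5 in control, and was 2.81-fold lower (log2 difference -1.49 ± 0.27, adjusted p = 9.8e-04). *Lpar1*, a receptor gene for lysophosphatidic acid, was 2.01-fold lower on its brightest probe set, but its other tested probe set had a difference of -0.02. *Enpp2*, for the enzyme that makes this lipid, was lower by -0.88 and the deacetylase gene *Sirt2* by -0.77. *Abca2*, a lipid transporter gene, was higher by 0.62, the protease gene *Adamts4* by 0.53 and the lipocalin gene *Apod* by 0.41, but at an equal median these were 0.18, 0.09 and -0.02 and none passed. *Adamts4* also lost its call without the 5% CR array (0.55, adjusted p = 0.061), the 10% (0.50, adjusted p = 0.074) or the 20% (0.53, adjusted p = 0.058), and *Apod* without the 5% (0.43, adjusted p = 0.058) or the 20% (0.39, adjusted p = 0.063).

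Of 7 genes of oligodendrocyte precursors, 2 were lower, the proteoglycan genes *Cspg5* (-1.58) and *Bcan* (-0.62). *Pdgfra*, the receptor gene that marks these cells, had 747.5, 906.2, 746.5 and 562.4 in CR and 668.1 in control, a difference of 0.13 (adjusted p = 0.70) that was -0.31 at an equal median. The other tested probe set of *Bcan* had a difference of -0.25. Without a mean-variance trend the call of *Bcan* was kept narrowly (adjusted p = 0.049). Counted by probe set, 2 of the 9 tested in this list were lower and 1 was higher.

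**Figure D5:**
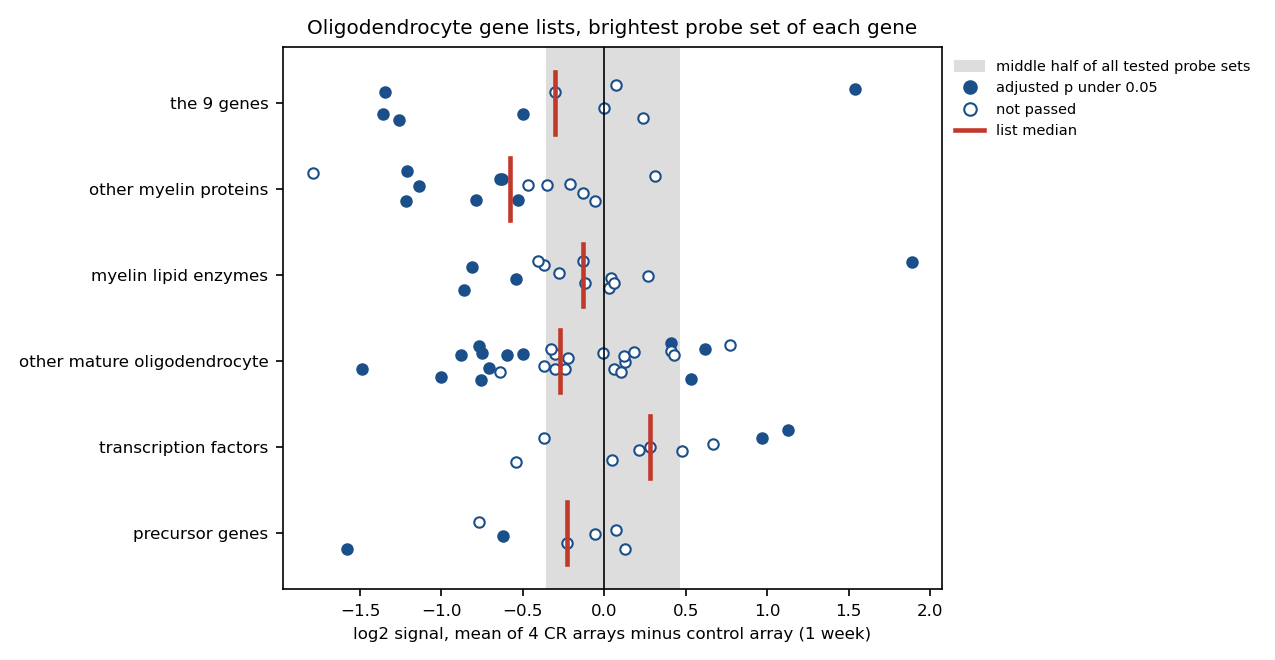
Log2 difference (CR minus control) of each gene of the lists past the filter, read on its brightest probe set, 1 line of points per list, filled where the adjusted p was under 0.05, with the list's median as a red bar and the quartile range of all tested probe sets shaded (-0.35 to 0.46). The median was -0.58 for other myelin proteins, -0.13 for lipid enzymes, 0.28 for transcription factors, -0.27 for other mature genes and -0.23 for precursor genes, against -0.02 over all genes.

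Markers of other cell types and tissues were summed as well. The summed signal was 22155 to 23062.1 in CR and 22699.4 in control for 7 astrocyte genes, 12641.5 to 14156.3 in CR and 14830.2 in control for 8 neuron genes, 1772.6 to 1910.1 in CR and 1794.2 in control for 7 microglia genes, and 1349.9 to 1610.5 in CR and 1543.3 in control for 6 genes of endothelium. By the brightest probe set, 1 astrocyte gene was lower and 1 higher of 6 past the filter, 2 neuron genes lower and 1 higher of 7, no microglia gene lower and 1 higher of 5, and 1 endothelium gene lower and 1 higher of 6. For the pituitary, which adjoins the hypothalamus, 6 genes summed to 1979.9 to 2812.6 in CR, against 968.2 in control, and 3 of 3 past the filter were higher. For choroid plexus, 3 genes summed to 194.4 to 280.7 in CR, against 110.6 in control. The part of a differing dissection in the results above was not tested.

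The genes whose 4 differences lay nearest to a member's were found among all tested probe sets with 1 symbol, by Euclidean distance over the 4 log2 differences. They were *Fbxo9* (0.13), *Tra2b* (0.14) and *Mdh1* (0.14) for *Mog*. For *Mal* they were *Papola* (0.14), *Zc3h7b* (0.18) and *Tmem87a* (0.20), and for *Ugt8* *Hpcal1* (0.12), *Papola* (0.13) and *Nucb1* (0.23). None of these is on the lists of myelin genes. *Olig1* was nearest to *Syt5* (0.06), *Wsb2* (0.07) and *Bltp1* (0.08), and *Olig2* to *Nradd* (0.21), *Cdk10* (0.26) and *Cep295* (0.26). The near-control patterns had closer neighbours, such as *Ndn* (0.04) for *Mag*, *Ctcf* (0.03) for *Mbp* 1368810_a_at, *Mrpl36* (0.04) for *Mobp* 1370434_a_at and *Alg10* (0.05) for *Cnp* 1387897_at.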

How the data were processed

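RNA of 5 rats per group was pooled and hybridised to 1 array per group. The authors processed the scans with MAS5 and deposited a linear signal intensity per probe set, scaled to an equal trimmed mean. The array number limits the precision. Probe sets were named through the platform annotation: of 31099, 20832 had 1 symbol, 436 several and 9831 none. The 4 values of 0 were set to 0.1, signals were taken to log2, 57 control probe sets were left out, and the test was run on those whose mean log2 value exceeded the 50th percentile. CR and control were compared with limma 3.58.1 (lmFit, eBayes with a trend, 3 residual degrees of freedom, R 4.3.3), adjusted by Benjamini-Hochberg at 0.05. The linear trend was fitted to the CR arrays alone (2 residual degrees of freedom). Tables used pandas 2.3.3, scipy 1.17.1 and numpy 2.4.6 under Python 3.11.15, and figures matplotlib 3.10.9. The fit was tested on simulated data, with all arrays drawn from the mean and spread of the CR arrays. A control array that stands apart, as the one here does, was thus not simulated.

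Every probe set of the 9 genes is named. From the other lists, genes past the test were named on their brightest probe set, largest change first and at most 4 per direction, and *Sox10*, *Myrf* and *Pdgfra* in any case; a further gene of this rule is not reported here. *Cldn11* and the further probe sets of *Id2*, *Id4*, *Degs1*, *Lpar1* and *Bcan* were added after their values were seen. The members and lists were chosen with earlier results of these data known. Alternatives were other scalings, a pseudocount of 13.7, other filters, no variance trend and leaving out each CR array. MAS5 detection calls were not used here.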

Additional observations from a re-analysis of the deposited data

How the results depend on the processing

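Of the 14 tested probe sets, 6 were lower in CR as deposited, 10 at an equal median, 8 after quantile normalization and 5 without a variance trend. Of all 15517 tested, 1712 were lower as deposited, 5025 at an equal median, 1311 after quantile normalization and 1006 without a variance trend. When 1 CR array was left out, 6 to 7 of the 14 were lower, and 1497 to 1820 of all. The 1 higher probe set, *Olig2* 1379593_at, was 0 at an equal median, after quantile normalization, after cyclic loess and with a filter at the 75th percentile, which leaves it out, and 0 to 1 without 1 CR array. *Mbp* 1368810_a_at turned to -0.37 (adjusted p = 0.010) at an equal median and to -0.27 (adjusted p = 0.028) after quantile normalization, and *Apod* turned to -0.02 at an equal median. *Mal*, *Mog*, *Mbp* 1387341_a_at, *Mobp* 1370500_a_at and *Ugt8* 1368858_at kept their direction and call in all 12 alternatives, with the smallest difference -1.11 for *Mobp* and the largest -2.76 for *Mbp*. The call of *Mal* was kept narrowly without a variance trend (adjusted p = 0.0498). A 2-fold limit at all 4 levels left 2 probe sets in place of 5, and quantile normalization left 0 higher in place of 1.

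Over the other lists, 21 genes were lower, against 40 at an equal median, 11 without a variance trend and 19 to 25 without 1 CR array. Their 6 higher genes were 3, 2 and 4 to 6. With the dimmest tested probe set of each gene, chosen after seeing the data, 22 were lower and 5 higher. Over all 15517 tested probe sets 3958 passed (2246 higher, 1712 lower), against 6049 at an equal median (1024 higher, 5025 lower). With no filter 6685 of 31042 passed (4943 higher), and without 1 CR array 3458 to 4076 (1960 to 2256 higher, 1497 to 1820 lower). A filter at the 75th percentile left 1368 lower and 1295 higher of 7750, and no variance trend 1006 lower. The lower counts of the lists and of all probe sets thus rose together at an equal median and fell together without a variance trend. The causes were not tested. The trend over CR level passed for 0 probe sets in limma under every alternative run (741 at an unadjusted p under 0.05 as deposited). No paired analysis was possible because each group had 1 array. The variation of the 1 control array is unmeasured, and the *Olig2* probe sets lie at or under the filter.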
